A study of Rattus norvegicus with 30 samples.

Results

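The comparison described here set 5 wells of undosed rat hepatocytes harvested at 48 h against 5 wells harvested at 24 h, 10 of the 30 wells of a phenobarbital time-course and dose study. Wells were taken by their titles, which name the time and water, and every probe set of the array except the manufacturer's controls was read, 31042 of 31099. The cells were frozen primary hepatocytes of male Sprague Dawley rats, bought from a supplier, plated on collagen and overlaid with Matrigel, a basement membrane extract. Dosing took place on day 3 of culture, and time counts from there. The vehicle wells received no phenobarbital (0 µM). The titles and the concentration label call their vehicle water and the agent label calls it culture medium, so what was added cannot be settled from the labels. The other wells received 300 µM or 3000 µM phenobarbital, a barbiturate that induces drug-metabolizing enzymes, and were harvested at the same times, 5 wells a group. The protocol describes the 5 wells of a group as independent cultures. The labels number no animal or vial, so p-values measure the spread between wells, and nothing here bears on spread between donors. Time in culture and time since the vehicle was added cannot be told apart in this design.

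Hepatocytes make plasma proteins and bile acids, dispose of ammonia and amino acids, and oxidize drugs and steroids with cytochrome P450 enzymes. Many of these functions depend on hormones, blood flow and contacts that a culture dish lacks, and plated hepatocytes are known to lose P450 transcripts and to take up a more spread, cytoskeleton-rich state. A collagen and Matrigel sandwich is used to slow that loss. Undosed wells of 2 times therefore show what moves without the drug, against which a drug effect is read.

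Expression was read as probe set signals of a rat whole-genome Affymetrix array, 1 array a well, and is given as log2 signal, so that a difference of 1 is a 2-fold change. Signals of different probe sets are not set against each other as levels of transcripts. Within the 24 h wells, arrays correlated across probe sets with r of 0.967 to 0.978, and within the 48 h wells with 0.976 to 0.982. Pairs from different times correlated with 0.963 to 0.977, which overlaps the range within 24 h. Wells at 24 h were less alike, with a mean correlation with their own group of 0.9724 against 0.9787 at 48 h (two-sided exact permutation test, p = 0.00794, Benjamini-Hochberg adjusted 0.0181). The model used below takes a common spread for all groups. In a principal component plot of the 10 arrays, the leading axis (21.3% of their variance) put every 24 h well on one side and every 48 h well on the other. Replicate 1 of the 24 h wells stood apart. Its hybridization controls, added after labelling, had a mean log2 signal of 13.9, against 13.01 to 13.06 in the other 24 h wells and 12.84 to 12.99 at 48 h. Across the 2 times these controls did not overlap (two-sided exact permutation test, p = 0.00794, the smallest that 5 against 5 wells allow, and 0.0181 after Benjamini-Hochberg adjustment over the array measures). The array medians (8.57 ± 0.07 and 8.62 ± 0.05, exact p = 0.214) and the 3′ to 5′ ratio of the Gapdh controls (exact p = 0.151), a sign of RNA integrity, overlapped. The cells carried the defining transcripts of hepatocytes at both times, with log2 signals of 16.62 ± 0.26 at 24 h and 16.37 ± 0.06 at 48 h for albumin and 16.19 ± 0.22 at 24 h and 15.97 ± 0.10 at 48 h for transthyretin (SD, n = 5).

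Between 24 h and 48 h 1195 of 16596 tested probe sets differed at an adjusted p under 0.05 (limma, Benjamini-Hochberg over all tested), or 7.2%. Of these 672 were higher (4.05%) and 523 lower (3.15%) at 48 h, and 40 were higher and 16 lower by at least 2-fold. With array medians set equal in place of the authors' scaling, 734 differed, 269 higher and 465 lower, so that the higher ones made up 36.6% in place of 56.2% and the balance of directions depends on the scaling. With 1 probe set a gene, 821 of 9831 genes passed (8.35%), 417 rose (4.24%) and 404 fell (4.11%), and in 950 genes (9.66%) the groups did not overlap, 480 of them higher (4.88%) and 470 lower (4.78%) at 48 h. The 404 fallers were 260 without replicate 3 of the 48 h wells, and the 417 risers were 170 with array medians set equal. The direction differed with the signal level. Among the fifth of genes with the highest signals 96 rose and 238 fell, and among the fifth with the lowest 39 rose and 8 fell. The plot of gene lists shows how both directions were spread over functions. In it the P450 list stood at one end, with 51.4% of tested members lower, and the integrated stress response list at the other, with 35% higher. Counts of a list are read below against the shares of all genes, 4.24% and 4.11%, and medians against the median log2 difference of all genes, 0.0123. These shares are not matched to the signal level of a list. How much of a list's count goes with the signal level of its members was not tested.

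**Figure D1:**
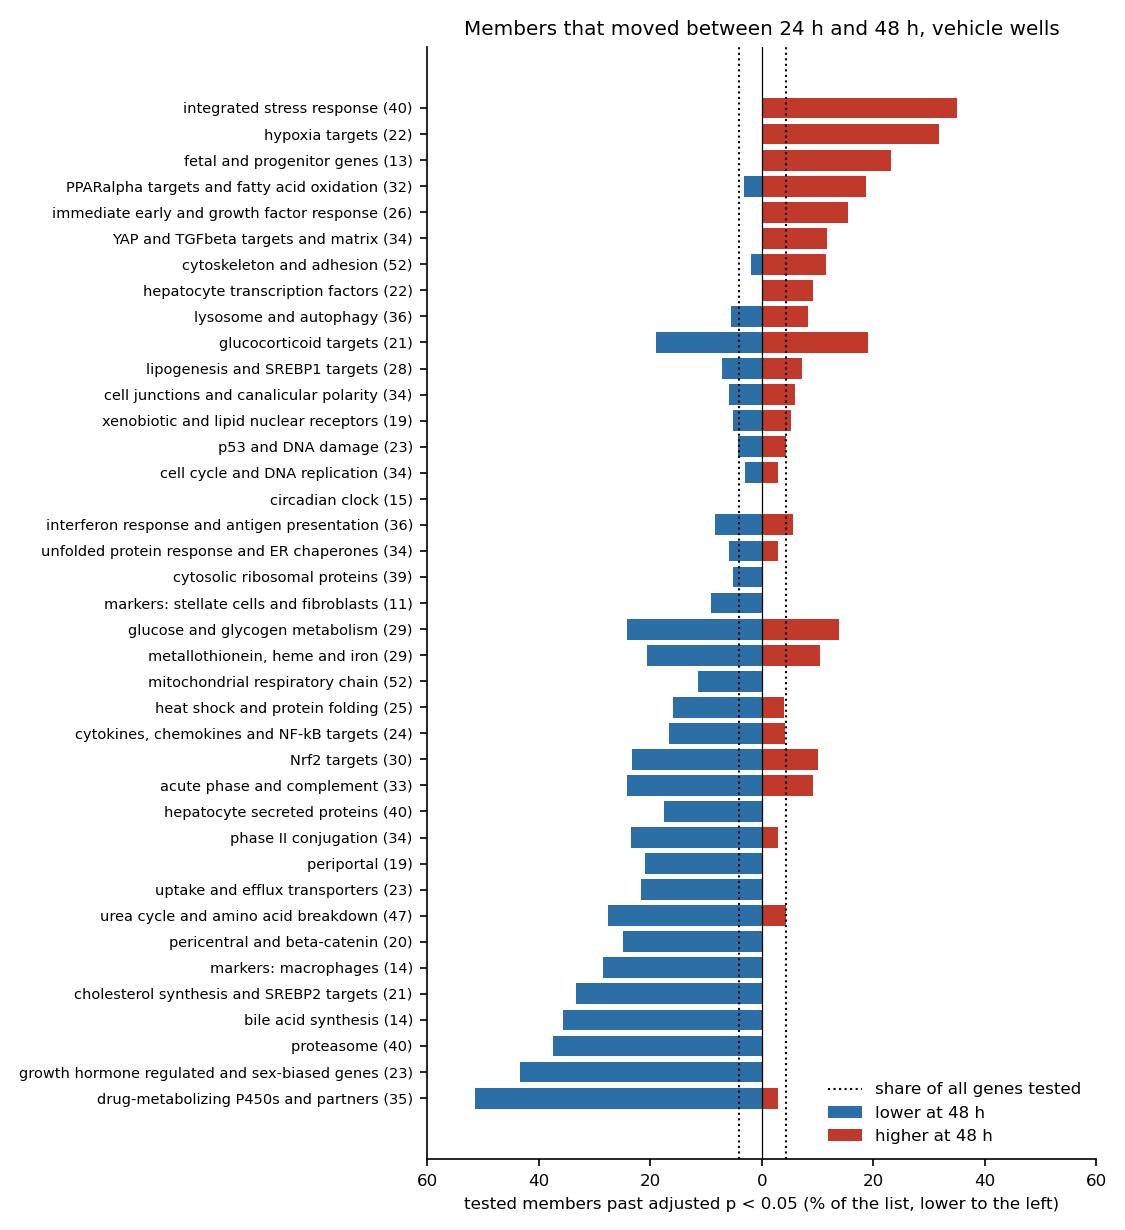
Bars give the share of tested members (in percent, number tested in brackets) of each gene list with at least 10 tested members that rose (right, red) or fell (left, blue) between 24 h and 48 h in vehicle wells, at an adjusted p under 0.05. The dotted lines mark the shares over all 9831 genes, 4.24% higher and 4.11% lower. The P450, growth hormone and proteasome lists reach farthest to the left, and the integrated stress response and hypoxia lists farthest to the right.

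Many cytochrome P450s and their partners fell. Of 35 tested members 18 fell, 1 rose and 16 did not pass, with a median log2 difference of -0.251. The fall was steepest in Cyp3a2, a male-predominant steroid hydroxylase of the CYP3A family. Its log2 signals were 11.58, 11.56, 11.28, 11.69 and 11.38 at 24 h and 9.88, 9.52, 10.15, 9.84 and 9.52 at 48 h. Every 24 h well lay above every 48 h well, a 3.29-fold decrease (log2 -1.72, SE 0.11, adjusted p = 5.18e-13). Cyp2c13, a male-specific form, read 11.99, 12.03, 11.69, 12.05 and 12.05 at 24 h and 10.48, 10.68, 10.74, 10.54 and 10.49 at 48 h. All 24 h wells were higher and replicate 3 was the lowest of them, while the 48 h wells lay close together (log2 -1.37, SE 0.09, adjusted p = 9.44e-13). Cyp1a2, which oxidizes caffeine and arylamines, read 13.43, 13.63, 13.27, 13.74 and 13.68 at 24 h and 12.31, 12.18, 12.18, 12.52 and 12.31 at 48 h. The groups again did not overlap (log2 -1.25, SE 0.12, adjusted p = 5.18e-09). Cyp2e1, the ethanol-oxidizing form, read 11.70, 11.68, 11.62, 11.57 and 11.47 at 24 h and 10.55, 10.42, 10.51, 10.67 and 9.79 at 48 h. Here replicate 5 of the 48 h wells was far below the other 48 h wells, and all 5 were below the 24 h wells (log2 -1.22, SE 0.14, adjusted p = 1.97e-07). The main male-specific hydroxylase Cyp2c11 fell by 0.52 on the log2 scale from signals of 14.89 ± 0.13 at 24 h and 14.37 ± 0.05 at 48 h (SD, n = 5, adjusted p = 1.08e-06). Cyp2a2, also a male-specific steroid hydroxylase, fell by 0.77.

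Not every P450 moved with them. Cyp3a23-3a1, the inducible CYP3A form, read 16.58, 16.19, 16.17, 16.13 and 16.20 at 24 h and 16.07, 16.02, 16.02, 16.08 and 15.98 at 48 h (log2 -0.22, SE 0.11, adjusted p = 0.285). The 48 h wells were all lower, but the difference did not pass the test, and replicate 1 of the 24 h wells, which stood apart in its controls, was well above the rest. The one riser of the list was Ces1d, a carboxylesterase, with signals of 12.36 ± 0.11 at 24 h and 12.71 ± 0.19 at 48 h (SD, n = 5) and overlapping groups (log2 0.35, SE 0.10, adjusted p = 0.0286). Ces1d lost its call without replicate 2 or 5 of the 24 h wells (adjusted p = 0.0866 and 0.0512) or replicate 1, 2 or 3 of the 48 h wells (0.0886, 0.0611 and 0.085), with array medians set equal (0.159) or with no filter (0.0532). The list had 15 to 18 fallers when any 1 of the 10 vehicle wells was left out. Probe sets of close family members, P450s and serpins among them, can take up each other's transcripts, which these signals cannot separate.

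**Figure D2:**
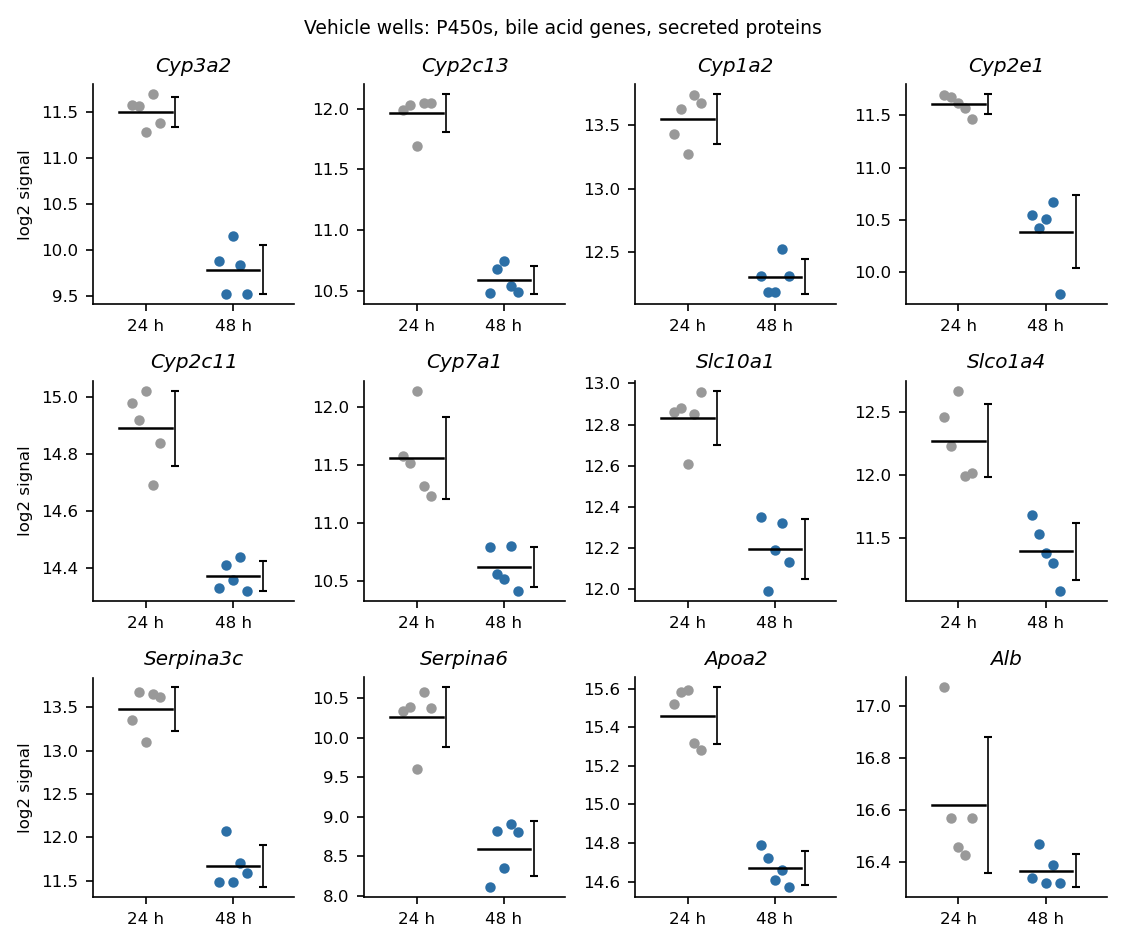
Each point is the log2 signal of 1 vehicle well at 24 h (grey) or 48 h (blue), 5 wells a time, with the mean (line) and SD (bar) of the group; each panel has its own axis and the axes do not start at 0. In 11 of the 12 genes all 24 h wells lie above all 48 h wells, while for Alb, which did not pass the test, replicate 1 of the 24 h wells lies far above the others.

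The list of genes set by pulsatile growth hormone or by sex, which in male rats depend on the pituitary, held many of the same P450s. Of its 23 tested members 10 fell and none rose (median -0.168), and the count was 10 in each of the fits that left out 1 vehicle well. The median was less stable, at -0.301 without replicate 3 at 24 h and -0.379 with the probe set of largest spread for each gene. Outside the P450s, Car3, carbonic anhydrase 3, read 11.18, 11.06, 10.36, 11.15 and 10.74 at 24 h and 9.94, 10.11, 9.61, 10.06 and 10.27 at 48 h. All wells at 24 h were higher, and replicate 3 was the lowest of them (log2 -0.90, SE 0.14, adjusted p = 6.71e-05). Sult1e1, the estrogen sulfotransferase, fell by 0.71 (adjusted p = 7.11e-05). The 15 largest falls with groups apart also held the serine protease inhibitors Serpina3c and Serpina3l. Serpina3c read 13.35, 13.67, 13.10, 13.65 and 13.62 at 24 h and 11.49, 12.07, 11.48, 11.70 and 11.59 at 48 h, the largest fall among the genes named by that rule (log2 -1.81, SE 0.12, adjusted p = 1.79e-12). All 24 h wells lay more than 1 log2 unit above all 48 h wells. Serpina3l fell by 1.25 (adjusted p = 4.82e-14).

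Conjugation and transport genes held fallers as well. Of 34 tested phase II enzymes, which attach sulfate, glucuronate or glutathione, 8 fell and 1 rose, and the median was -0.137 (-0.005 and 3 risers after quantile normalization). The sulfotransferase Sult2a6 fell by 0.68 and the thiopurine methyltransferase Tpmt by 0.35. The riser was Sult1c2, a sulfotransferase, which read 9.09, 9.21, 8.94, 9.28 and 8.92 at 24 h and 10.04, 10.04, 10.17, 10.10 and 10.13 at 48 h. The 48 h wells lay in a narrow band above all 24 h wells, a 2.02-fold rise (log2 1.01, SE 0.08, adjusted p = 2.04e-10). Of 23 tested transporters 5 fell and none rose, and 3 fell without replicate 3 at 24 h or replicate 1 or 5 at 48 h. The transporter median was 0.0191, and 13 of the 23 differences were positive. Slco1a4, an organic anion carrier of the sinusoidal membrane, read 12.46, 12.23, 12.67, 11.99 and 12.02 at 24 h and 11.68, 11.53, 11.38, 11.30 and 11.08 at 48 h (log2 -0.88, SE 0.13, adjusted p = 3.05e-05). Slc10a1, which takes up bile acids with sodium, read 12.86, 12.88, 12.61, 12.85 and 12.96 at 24 h and 12.35, 11.99, 12.19, 12.32 and 12.13 at 48 h (log2 -0.64, SE 0.12, adjusted p = 0.000582). For both carriers the groups stood apart. The canalicular bile acid pump Abcb11 did not pass the test, at 13.91 ± 0.05 at 24 h and 13.86 ± 0.02 at 48 h (SD, n = 5, log2 -0.04, SE 0.05, adjusted p = 0.723), while the canalicular conjugate pump Abcc2 fell by 0.30 (adjusted p = 0.00547).

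Bile acid synthesis showed 5 fallers and no riser among 14 tested genes (median -0.191, or -0.118 after quantile normalization and -0.337 with the probe set of largest spread). Cyp7a1, the rate-limiting enzyme of the classic pathway, read 11.58, 11.52, 12.14, 11.32 and 11.23 at 24 h and 10.79, 10.56, 10.51, 10.80 and 10.41 at 48 h. The 24 h wells were all higher, with replicate 3 the highest of them (log2 -0.95, SE 0.25, adjusted p = 0.0152). Without that replicate Cyp7a1 no longer passed (log2 -0.80, adjusted p = 0.061) and the list had 1 faller. Acox2, which shortens the bile acid side chain, fell by 0.56 (adjusted p = 5.9e-05). Cyp8b1, which sets the share of cholic acid, had overlapping groups at 12.28 ± 0.21 at 24 h and 11.86 ± 0.14 at 48 h (SD, n = 5) and did not pass (log2 -0.42, SE 0.19, adjusted p = 0.207). Nr1h4, the bile acid receptor, read -0.28 on the log2 scale (adjusted p = 0.0744). Cyp8b1 and Nr1h4 each passed in at least 1 other setting, with lowest limma adjusted p of 0.0116 and 0.0379.

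Most secreted plasma proteins and most factors that define a hepatocyte did not pass the test, nor did 9010 of all 9831 genes. Of 40 tested secreted proteins 7 fell (17.5%, against 4.11% of all genes) and none rose. Of the 40 differences 7 were positive, and the median was -0.145, or -0.023 after quantile normalization. Apoa2, an apolipoprotein of HDL, read 15.52, 15.58, 15.59, 15.32 and 15.28 at 24 h and 14.79, 14.72, 14.61, 14.66 and 14.57 at 48 h, with the groups apart (log2 -0.79, SE 0.06, adjusted p = 1.06e-10). Afm, the vitamin E binding protein afamin, fell by 0.83 (adjusted p = 8.4e-11). The corticosteroid-binding globulin Serpina6, which is outside the list of secreted proteins, was the third largest fall among the genes named by size. It read 10.34, 10.39, 9.60, 10.57 and 10.38 at 24 h and 8.11, 8.82, 8.35, 8.90 and 8.80 at 48 h (log2 -1.66, SE 0.17, adjusted p = 2.11e-08), and both groups were spread, with replicate 3 the lowest at 24 h. Albumin read 17.07, 16.57, 16.46, 16.43 and 16.57 at 24 h and 16.34, 16.47, 16.32, 16.39 and 16.32 at 48 h. Replicate 1 at 24 h was the highest well by far, the groups overlapped, and the difference did not pass (log2 -0.25, SE 0.15, adjusted p = 0.361). Ttr, the thyroxine carrier, and Apoa1 did not pass either, with log2 differences of -0.22 and -0.14.

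Of 22 tested hepatocyte transcription factors 2 rose and none fell. There were 3 risers without replicate 4 or 5 at 24 h, and 1 faller without replicate 4 at 48 h, after quantile normalization, with array medians set equal or with the probe set of largest spread for each gene. Onecut1, a liver-enriched factor of biliary and hepatic development, read 8.51, 9.43, 9.01, 9.71 and 9.33 at 24 h and 9.91, 9.81, 9.82, 10.09 and 9.93 at 48 h. The 48 h wells were close together and above all 24 h wells, which were spread (log2 0.72, SE 0.17, adjusted p = 0.00772). Onecut2 rose by 0.36 (adjusted p = 0.0146), but not with array medians set equal (adjusted p = 0.0996) and not without replicate 1 at 24 h (adjusted p = 0.0644) or replicate 4 at 48 h (0.0585). Hnf4a, the main factor of hepatocyte identity, read 12.86 ± 0.04 at 24 h and 12.71 ± 0.04 at 48 h (SD, n = 5) and did not pass (log2 -0.15, SE 0.07, adjusted p = 0.19), although its groups did not overlap, and its other 2 probe sets read 0.02 and 0.15. The groups were also apart without a pass for Cebpa, at -0.30 (adjusted p = 0.0533), and for the xenobiotic receptor Nr1i3, known as CAR, at -0.33 (adjusted p = 0.278). Cebpa and Nr1i3 each passed in at least 1 other setting, with lowest limma adjusted p of 0.0181 and 0.00804. Nr1h3, the oxysterol receptor LXR alpha, fell by 0.28 (adjusted p = 0.00296). Nr1i2, the pregnane X receptor, did not pass, at -0.10. Ppara lay below the filter level, and Actb and Sox9 had no probe set of their own. The plot of identity genes shows this split.

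**Figure D3:**
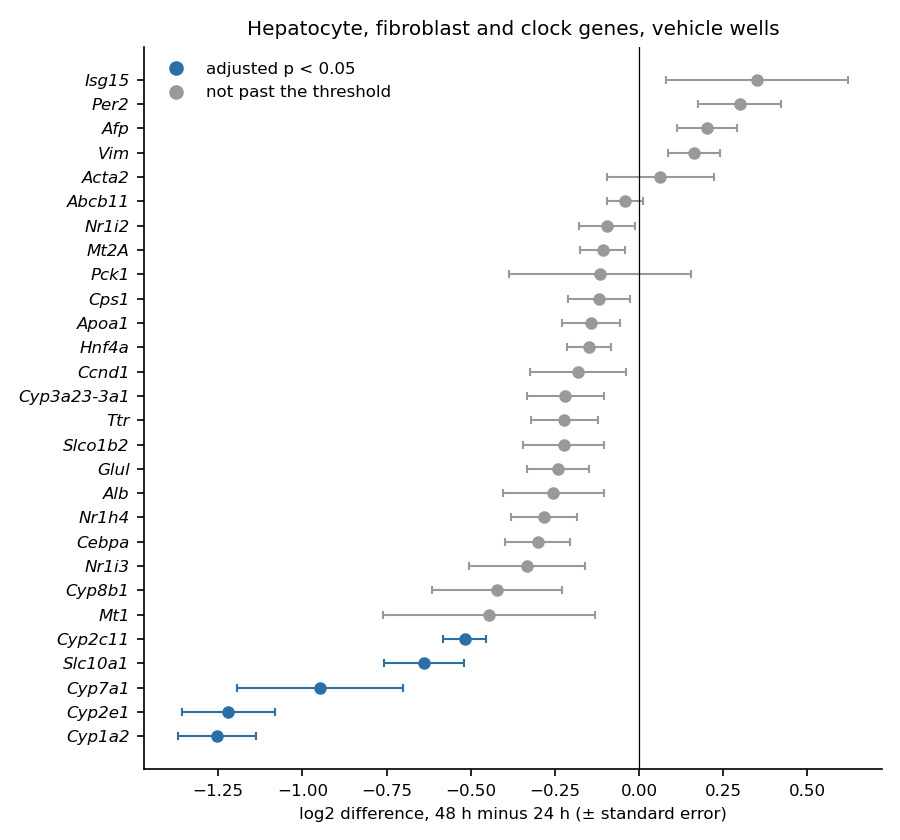
Points give the log2 difference, 48 h minus 24 h, of the vehicle wells (5 a group) with its standard error. The genes are from the set named whether or not they passed, which was chosen with earlier results of these data known. Blue points passed an adjusted p under 0.05 and grey points did not. Of the 28 genes drawn, Cyp1a2, Cyp2e1, Cyp7a1, Slc10a1 and Cyp2c11 passed, all of them lower, while Alb, Hnf4a, Vim and Acta2 did not.

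Of 47 tested genes of the urea cycle and amino acid breakdown 13 fell, 2 rose and 32 did not pass (median -0.181), 9 fell after quantile normalization, and 1 rose without replicate 1, 3 or 4 at either time. Bhmt, which remethylates homocysteine with betaine, read 15.60, 15.59, 15.61, 15.46 and 15.38 at 24 h and 14.80, 14.87, 14.76, 14.84 and 14.59 at 48 h (log2 -0.76, SE 0.13, adjusted p = 0.000309). Hgd, homogentisate dioxygenase of tyrosine breakdown, read 11.34, 11.36, 11.67, 11.48 and 11.45 at 24 h and 10.75, 10.69, 10.71, 10.81 and 10.56 at 48 h (log2 -0.75, SE 0.09, adjusted p = 1.08e-06). Both had their groups apart. The kynurenine monooxygenase Kmo fell by 0.64 and the histidine ammonia-lyase Hal by 0.60. Arg1, the last enzyme of the urea cycle, fell by 0.33 (adjusted p = 0.00936), but did not pass after quantile normalization (log2 -0.17, adjusted p = 0.0526). Cps1, its first enzyme, did not pass (log2 -0.12, SE 0.09, adjusted p = 0.512).

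Both lists of genes labelled by their place in the lobule held a larger share of fallers than all genes, though most members did not pass. The pericentral list, of cells around the central vein, had 5 fallers and no riser among 20 tested, and the periportal list 4 fallers and no riser among 19, so that 15 of each did not pass. These were 25% and 21.1% fallers, against 4.11% of all genes. Medians were -0.0765 and -0.232, with 5 and 1 positive differences. With array medians set equal the periportal list had 6 fallers. The pericentral fallers held Cyp1a2, Cyp2e1 and Cyp7a1, and the periportal ones Hal and Arg1, all given above with their limits. Glul, the pericentral glutamine synthetase, did not pass (log2 -0.24, SE 0.09, adjusted p = 0.115), while another of its probe sets rose by 0.28.

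Cholesterol synthesis genes, which the factor SREBP2 drives, had 7 fallers and no riser among 21 tested (median -0.143). Fdps, farnesyl diphosphate synthase, read 15.66, 15.56, 15.70, 15.35 and 15.29 at 24 h and 15.10, 15.20, 15.10, 15.11 and 15.09 at 48 h (log2 -0.39, SE 0.06, adjusted p = 1.54e-05), and Msmo1, a methyl sterol oxidase, read 14.05, 13.96, 14.15, 13.82 and 13.92 at 24 h and 13.74, 13.78, 13.52, 13.66 and 13.45 at 48 h (log2 -0.35, SE 0.08, adjusted p = 0.00592). Both had all 48 h wells below all 24 h wells, by small margins. Without replicate 1 or replicate 2 of the 24 h wells 4 members fell, and without replicate 3 the median was -0.0935. RefSeq promoter windows of the GRCr8 build, 250 bases before to 50 after each gene's start, were at hand for 5 of the 7. All 5 held a CCAAT box (CCAAT, either strand), which 37.7% of 27457 windows hold, and none held the SREBP motif TCACNCCAC, which 1.13% hold. Those of Fdps (chr2:176804767-176805066, minus strand) and Msmo1 (chr16:29746863-29747162, plus strand) are shown because these fallers hold several, with the CCAAT boxes in capitals.
Fdps: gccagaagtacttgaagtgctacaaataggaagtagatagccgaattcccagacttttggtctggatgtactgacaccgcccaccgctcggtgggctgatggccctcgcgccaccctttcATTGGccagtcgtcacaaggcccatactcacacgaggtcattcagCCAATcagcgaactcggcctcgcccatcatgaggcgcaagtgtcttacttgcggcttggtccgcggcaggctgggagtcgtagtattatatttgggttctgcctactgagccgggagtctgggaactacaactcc
Msmo1: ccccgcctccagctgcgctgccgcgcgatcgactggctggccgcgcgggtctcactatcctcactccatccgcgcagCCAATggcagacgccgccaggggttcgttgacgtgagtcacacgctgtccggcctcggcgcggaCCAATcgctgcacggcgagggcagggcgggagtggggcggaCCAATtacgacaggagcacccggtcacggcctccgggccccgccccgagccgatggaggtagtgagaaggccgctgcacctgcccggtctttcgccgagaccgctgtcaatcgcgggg
A match is a run of letters and no evidence that a factor binds there. Members of the list that did not pass were not searched, so these shares do not bear on the fall.

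Part of the integrated stress response list rose. This pathway slows translation when amino acids, heme or protein folding fall short and raises transcripts for amino acid import and synthesis through ATF4. Of 40 tested members 14 rose, none fell and 26 did not pass, 38 had a positive difference, and the median was 0.215. Leaving out any 1 vehicle well gave 14 to 16 risers, and setting array medians equal gave 10. Vldlr, the very low density lipoprotein receptor, read 11.54, 11.84, 11.59, 12.33 and 12.20 at 24 h and 12.71, 12.36, 12.63, 12.66 and 12.99 at 48 h (log2 0.77, SE 0.14, adjusted p = 0.000548). Replicates 4 and 5 were the highest at 24 h and still lay below all 48 h wells. Slc7a11, the cystine-glutamate exchanger, read 11.17, 11.33, 11.07, 11.51 and 11.39 at 24 h and 11.85, 12.07, 12.09, 11.79 and 12.05 at 48 h (log2 0.68, SE 0.09, adjusted p = 5.33e-06). Aldh18a1, of proline synthesis, read 10.22, 9.78, 10.18, 10.31 and 10.31 at 24 h and 10.81, 10.52, 10.74, 10.62 and 10.67 at 48 h (log2 0.51, SE 0.10, adjusted p = 0.0012). In both genes the 48 h wells were all above the 24 h wells, and for Aldh18a1 replicate 2 was low at 24 h. Fgf21, a fasting hormone of the liver, read 12.39, 12.14, 12.41, 12.03 and 12.08 at 24 h and 12.59, 12.71, 12.69, 12.78 and 12.71 at 48 h (log2 0.48, SE 0.09, adjusted p = 0.000829). The stress factor Atf3 rose by 0.45 (adjusted p = 0.00488). The other 9 risers, among them genes of serine and asparagine synthesis and aminoacyl-tRNA ligases, rose by 0.28 to 0.45. The unfolded protein response of the endoplasmic reticulum, a separate list, had 1 riser and 2 fallers among 34 tested. These counts ran over 0 to 3 and 0 to 2 as each vehicle well was left out.

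The ATF4 composite element (TGATGNAA, either strand) was present in 3 of the 12 promoter windows at hand for the 14 risers, or 25%, against 3.82% of all windows. The 3 windows are shown for that reason, Fgf21 (chr1:105221327-105221626, minus strand), Chac1 (chr3:126795881-126796180, plus strand) and Slc7a1 (chr12:11664238-11664537, plus strand), with the element in capitals. It began 143, 167 and 30 bases before the start. Chac1, a glutathione-degrading enzyme, and Slc7a1, a cationic amino acid carrier, were picked for the element after their values were seen.
Fgf21: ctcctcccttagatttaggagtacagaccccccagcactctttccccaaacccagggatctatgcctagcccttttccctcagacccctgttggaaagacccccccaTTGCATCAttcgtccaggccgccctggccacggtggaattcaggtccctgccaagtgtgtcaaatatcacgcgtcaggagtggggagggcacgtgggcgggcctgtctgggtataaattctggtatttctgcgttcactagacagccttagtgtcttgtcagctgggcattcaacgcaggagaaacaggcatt
Chac1: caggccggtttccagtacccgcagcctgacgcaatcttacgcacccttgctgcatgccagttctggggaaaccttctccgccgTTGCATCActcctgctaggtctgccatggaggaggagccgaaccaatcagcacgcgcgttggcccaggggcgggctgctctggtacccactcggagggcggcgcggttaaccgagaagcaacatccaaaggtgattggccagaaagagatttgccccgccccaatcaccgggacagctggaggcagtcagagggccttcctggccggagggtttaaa
Slc7a1: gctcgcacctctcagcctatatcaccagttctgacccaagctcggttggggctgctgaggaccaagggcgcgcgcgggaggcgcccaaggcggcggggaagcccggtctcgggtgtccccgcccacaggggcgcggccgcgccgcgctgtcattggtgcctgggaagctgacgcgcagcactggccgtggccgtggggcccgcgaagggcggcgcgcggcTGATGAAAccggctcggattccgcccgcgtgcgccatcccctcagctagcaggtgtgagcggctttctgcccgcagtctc
The element was not in the other 9 windows, which says only that these letters are not there. The list was drawn up from genes of this pathway, and its members that did not pass were not searched. The 25% against 3.82% therefore does not bear on the rise.

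Some hypoxia targets rose. HIF, the oxygen-sensing factor, raises glucose uptake and glycolysis when oxygen is short. Of 22 tested targets 7 rose and none fell, with 20 positive differences and a median of 0.272. The count rested on single wells: it was 3 without replicate 3 and 4 without replicate 1 at 24 h, 4 without replicate 4 or 5 at 48 h, and 3 with array medians set equal. Ndrg1, a stress-responsive gene of the list, read 10.54, 11.24, 10.01, 11.79 and 11.43 at 24 h and 12.22, 12.02, 11.91, 12.18 and 12.39 at 48 h. Replicates 1 and 3 were the lowest at 24 h, and all 48 h wells were above all 24 h wells (log2 1.14, SE 0.22, adjusted p = 0.00113). Slc2a1, the glucose transporter GLUT1, read 11.08, 10.89, 10.27, 10.91 and 10.91 at 24 h and 11.42, 11.45, 11.24, 11.51 and 11.53 at 48 h (log2 0.61, SE 0.12, adjusted p = 0.00126), with replicate 3 far below the other 24 h wells. Adm, the vasodilator adrenomedullin, rose by 0.62 (adjusted p = 0.0156), but not without replicate 1 (log2 0.56, adjusted p = 0.0542) or replicate 3 at 24 h (log2 0.49, adjusted p = 0.069) and not with array medians set equal (adjusted p = 0.0685). Pfkp, a phosphofructokinase, read 11.16, 11.61, 10.89, 11.79 and 11.55 at 24 h and 12.48, 12.37, 12.41, 12.59 and 12.61 at 48 h (log2 1.09, SE 0.15, adjusted p = 8.3e-06). Eno2, the neuronal enolase, read 7.83, 7.74, 7.65, 8.68 and 8.38 at 24 h and 9.54, 9.36, 9.31, 9.56 and 9.56 at 48 h (log2 1.41, SE 0.21, adjusted p = 2.66e-05), but its 24 h mean lay below the filter level, so that it was tested only through its higher groups. Eno2 was in neither the hypoxia nor the glucose list, and Pfkp was not in the glucose list. In the glucose list 4 genes rose and 7 fell among 29, and 4 fell after quantile normalization. Pck2, the mitochondrial PEP carboxykinase, rose by 0.81 and Ldhb, a lactate dehydrogenase subunit, by 0.70. Pklr, the liver pyruvate kinase, fell by 0.62, and Slc37a4, the glucose-6-phosphate translocase, by 0.36 (adjusted p = 0.0634 after quantile normalization). Pck1, the gluconeogenic enzyme, did not pass (log2 -0.12, SE 0.27, adjusted p = 0.871).

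Of the 7 rising hypoxia targets 6 had a promoter window, and 3 of these held the core of the HIF element (ACGTG, either strand, a motif added after the results were known), against 19.7% of all windows. The element overlaps the E-box CACGTG, which 6.65% of windows hold. The list was drawn up as hypoxia targets and its members that did not pass were not searched, so these shares do not bear on the rise. The windows of a glucose carrier and of a signalling inhibitor are shown, Slc2a1 (chr5:138002272-138002571, plus strand) and Ddit4 (chr20:28436988-28437287, minus strand), an mTOR inhibitor that rose by 0.48 (adjusted p = 0.00241).
Slc2a1: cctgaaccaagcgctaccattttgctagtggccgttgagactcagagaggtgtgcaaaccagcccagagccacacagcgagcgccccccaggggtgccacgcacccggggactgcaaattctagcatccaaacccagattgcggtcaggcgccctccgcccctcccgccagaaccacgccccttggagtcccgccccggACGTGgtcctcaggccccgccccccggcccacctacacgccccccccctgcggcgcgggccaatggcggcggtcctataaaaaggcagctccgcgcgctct
Ddit4: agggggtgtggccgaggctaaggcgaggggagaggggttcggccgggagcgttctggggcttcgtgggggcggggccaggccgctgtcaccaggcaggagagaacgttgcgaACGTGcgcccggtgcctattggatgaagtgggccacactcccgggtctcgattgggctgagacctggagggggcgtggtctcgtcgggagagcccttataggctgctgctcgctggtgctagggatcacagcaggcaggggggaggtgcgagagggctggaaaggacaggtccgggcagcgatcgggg
Capitals mark the core, 51 and 138 bases before the start.

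**Figure D4:**
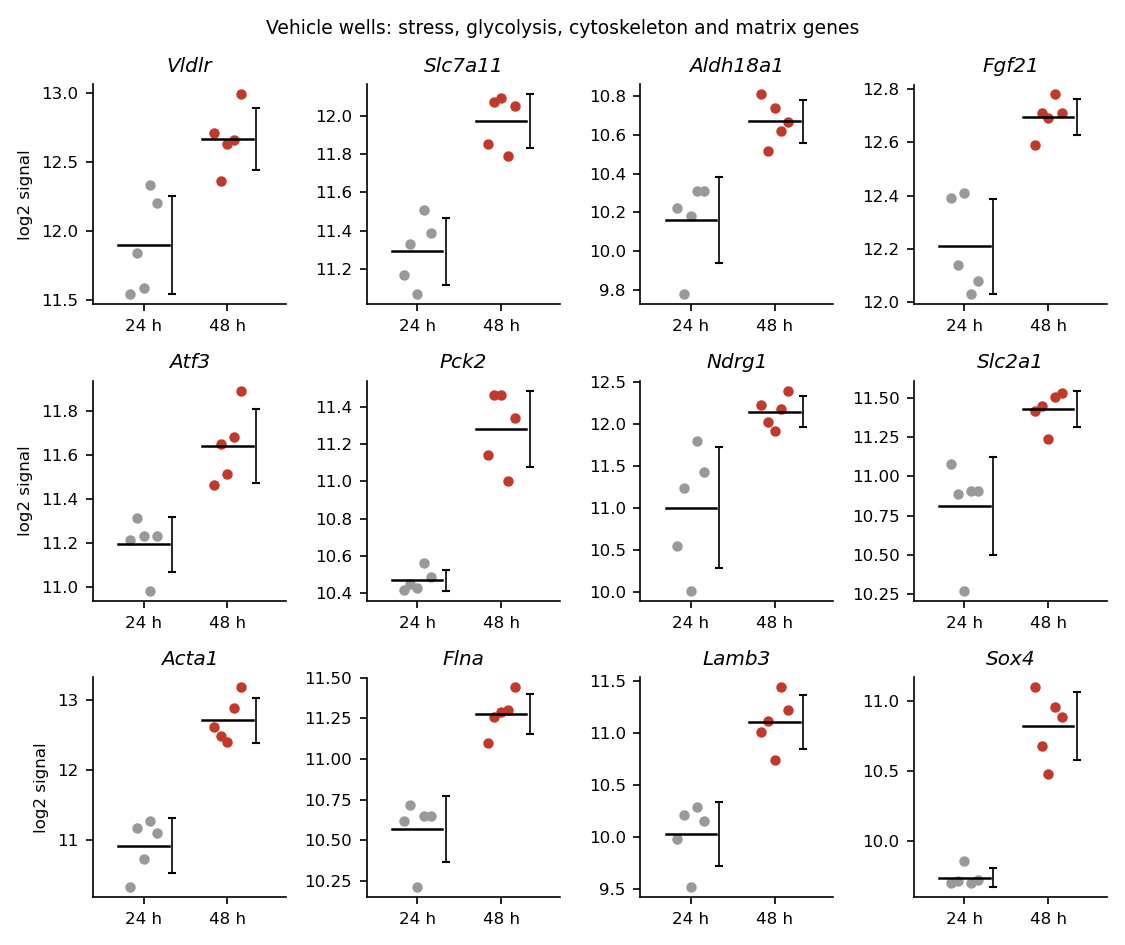
Each point is the log2 signal of 1 vehicle well at 24 h (grey) or 48 h (red), 5 wells a time, with the mean (line) and SD (bar) of the group; each panel has its own axis and the axes do not start at 0. In all 12 genes every 48 h well lies above every 24 h well, and the 24 h wells of Ndrg1 and Acta1 are spread.

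Cytoskeletal and matrix genes rose in part of their lists. The actin Acta1 and the protease inhibitor Serpine2 are given here but belong to neither list. Acta1, the skeletal muscle actin, read 10.33, 11.17, 10.73, 11.28 and 11.11 at 24 h and 12.61, 12.49, 12.40, 12.89 and 13.18 at 48 h. It had the second largest rise among the genes named by size, 3.46-fold, with the 48 h wells all more than 1 log2 unit above the highest 24 h well (log2 1.79, SE 0.26, adjusted p = 1.8e-05). Of 52 tested cytoskeleton and adhesion genes 6 rose and 1 fell (median 0.103, or 0.0514 with array medians set equal and 0.156 with the probe set of largest spread). With the probe set of largest spread taken for each gene 3 rose, and none fell without replicate 2 or 3 at 24 h or replicate 1 or 3 at 48 h. Flna, the actin crosslinker filamin A, read 10.62, 10.72, 10.21, 10.65 and 10.65 at 24 h and 11.10, 11.26, 11.29, 11.30 and 11.44 at 48 h (log2 0.70, SE 0.16, adjusted p = 0.00419), and the integrin subunit Itgav rose by 0.58 (adjusted p = 0.000474). In both replicate 3 was the lowest 24 h well. Acta2, the smooth muscle actin of myofibroblasts, did not pass (log2 0.06, SE 0.16, adjusted p = 0.88), nor did Vim, the intermediate filament of mesenchymal cells (log2 0.16, SE 0.08, adjusted p = 0.223), whose 48 h wells all lay above the 24 h wells. Of 34 tested targets of YAP and TGFbeta and matrix genes 4 rose and none fell. Lamb3, a laminin chain, read 9.98, 10.21, 9.52, 10.29 and 10.16 at 24 h and 11.01, 11.12, 10.74, 11.44 and 11.22 at 48 h (log2 1.07, SE 0.19, adjusted p = 0.000424). Plat, the tissue plasminogen activator, rose by 0.53 and Timp3, a metalloproteinase inhibitor, by 0.47. Serpine2, a protease inhibitor of the matrix, rose by 1.13 (adjusted p = 0.000251). The immediate early list had 4 risers and no faller among 26, and 4 in each fit that left out a vehicle well. These were Egr2 (1.00), Klf4 (0.47), Maff (0.46) and Atf3.

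Among 13 tested fetal and progenitor genes 3 rose and none fell. Sox4, a developmental transcription factor, read 9.70, 9.71, 9.86, 9.70 and 9.72 at 24 h and 11.10, 10.68, 10.48, 10.96 and 10.89 at 48 h. The 24 h wells were nearly equal apart from replicate 3, and all 48 h wells were far above (log2 1.09, SE 0.14, adjusted p = 3.16e-06). Ggt1, the gamma-glutamyltransferase of fetal liver and bile ducts, rose by 0.52 (adjusted p = 0.00363), and Epcam, an adhesion molecule of bile ducts and progenitors, by 0.28 (adjusted p = 0.000428, and 0.1 with array medians set equal). Afp, alpha-fetoprotein, did not pass (log2 0.20, SE 0.09, adjusted p = 0.189). Gjb1, the hepatocyte gap junction protein connexin 32, fell by 0.49 (adjusted p = 3.14e-06), with 2 risers and 2 fallers among 34 tested junction genes. Those were 0 risers with array medians set equal, 4 after quantile normalization, and 1 faller without replicate 2 or 4 at 24 h or replicate 3, 4 or 5 at 48 h.

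Several more of the largest rises fell outside these lists, as Acta1, Eno2 and Serpine2 did. Npy, the neuropeptide Y precursor, read 11.17, 11.60, 10.70, 11.69 and 11.68 at 24 h and 12.52, 12.47, 12.38, 12.94 and 13.28 at 48 h (log2 1.35, SE 0.18, adjusted p = 8.05e-06). Bex3, a small adaptor protein, read 10.81 ± 0.32 at 24 h and 12.12 ± 0.21 at 48 h (SD, n = 5, log2 1.32, SE 0.15, adjusted p = 2.29e-07). For both the groups did not overlap. Lmcd1, a LIM domain cofactor, rose by 1.17, and Slc2a13, an inositol carrier, by 1.07 from a 24 h mean below the filter level. The largest difference, 2.05 for the microvillus protein Vil1, started from a 24 h mean below the filter level and was tested only through its higher groups. Its signals were 5.82, 6.10, 7.54, 8.17 and 7.74 at 24 h and 9.17, 8.89, 9.32, 8.66 and 9.55 at 48 h (log2 2.05, SE 0.57, adjusted p = 0.0222), and the call was lost without replicate 1 (log2 1.73, adjusted p = 0.0777) or 2 (log2 1.80, adjusted p = 0.0684) at 24 h, or replicate 3 (log2 2.00, adjusted p = 0.0537) or 5 (log2 1.94, adjusted p = 0.0628) at 48 h. Cfap20dc (1.43) and Cox6a2 (1.40) also had a 24 h mean below the filter level and were tested only through their higher groups. Cfap20dc was lost without replicate 1 at 24 h (adjusted p = 0.0853) or replicate 5 at 48 h (0.0561), or in the vehicle arrays alone (0.0543). Cox6a2 was lost without any vehicle well other than replicates 3 and 4 at 24 h (adjusted p of 0.0573 to 0.122).

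Among lipid genes, PPARalpha targets and fatty acid oxidation genes held a larger share of risers than all genes, but not of fallers. Of 32 tested members 6 rose (18.8%, against 4.24% of all genes) and 1 fell (3.12%, against 4.11%). Their median was 0.0138, which turned to -0.038 when array medians were set equal. Cd36, the fatty acid translocase, read 13.15, 13.11, 13.30, 13.08 and 12.97 at 24 h and 13.83, 13.99, 13.71, 13.98 and 13.77 at 48 h (log2 0.74, SE 0.08, adjusted p = 2.69e-08), with the groups far apart. Vnn1, a pantetheinase, rose by 0.39, and Cyp4a1, a fatty acid hydroxylase, by 0.36. The mitochondrial thiolase Acaa2 fell by 0.21, but did not pass after quantile normalization (log2 -0.11, adjusted p = 0.139), where the list had no faller. Of 28 tested lipogenic genes 2 rose and 2 fell (7.14% each), counts too small to set apart from the shares of all genes. In that list 1 fell without any vehicle well other than replicate 2 at 48 h. Scd2, a stearoyl-CoA desaturase, read 9.08 ± 0.32 at 24 h and 10.12 ± 0.06 at 48 h (SD, n = 5, log2 1.04, SE 0.23, adjusted p = 0.00396), with the groups apart, and the malic enzyme Me1 rose by 0.32 (adjusted p = 0.144 with array medians set equal). Hepatic lipase, Lipc, fell by 0.42. Gpnmb, a lysosomal glycoprotein, rose by 0.88 (adjusted p = 5.59e-09), with 3 risers and 2 fallers among 36 tested lysosomal and autophagy genes, and 1 riser without replicate 1 at 24 h or with array medians set equal.

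Inflammatory transcripts were mostly lower where they differed. Cxcl1, a neutrophil chemokine, read 11.62, 11.56, 11.87, 11.55 and 11.72 at 24 h and 10.61, 10.10, 10.15, 10.28 and 10.41 at 48 h. Every 24 h well was above every 48 h well (log2 -1.35, SE 0.16, adjusted p = 1.08e-06). Cxcl11, an interferon-induced chemokine, fell by 0.76 (adjusted p = 4.23e-06). Of 24 tested cytokine and NF-kB genes 4 fell and 1 rose, with 2 fallers without replicate 3 at 24 h or replicate 4 at 48 h and 2 risers without replicate 2 at 24 h. Of 33 tested acute phase and complement genes 8 fell and 3 rose, with 1 riser without replicate 1 at 24 h and none without replicate 4 at 48 h or with array medians set equal. Lcn2, lipocalin 2, fell by 0.51 and Crp by 0.32. Hamp, the iron hormone hepcidin, rose by 0.70 (adjusted p = 0.0232), but not without replicate 1 (log2 0.60, adjusted p = 0.0843) or 3 (log2 0.56, adjusted p = 0.0984) at 24 h, or replicate 4 (log2 0.65, adjusted p = 0.0646) or 5 (log2 0.60, adjusted p = 0.0816) at 48 h, with array medians set equal (adjusted p = 0.0641) or in the vehicle arrays alone (0.0535). In the interferon list 2 of 36 rose and 3 fell. Rsad2, an antiviral enzyme, rose by 0.85 (adjusted p = 0.00445). Isg15, a ubiquitin-like interferon product, read 10.62, 10.68, 10.37, 10.54 and 10.83 at 24 h and 10.91, 10.61, 10.48, 10.70 and 12.09 at 48 h; replicate 5 at 48 h was high alone, and the difference did not pass (log2 0.35, SE 0.27, adjusted p = 0.512).

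Iron uptake and heme genes were among the fallers of a list with 3 risers and 6 fallers among 29. Without replicate 3 at 24 h or replicate 1 at 48 h 2 fell, and without replicate 3, 4 or 5 at 48 h 3 fell. Risers were 1 without replicate 3 at 24 h or replicate 5 at 48 h, and none with array medians set equal. Tfrc, the transferrin receptor, read 14.70, 14.49, 14.61, 14.65 and 14.55 at 24 h and 13.97, 14.07, 13.89, 13.85 and 13.72 at 48 h, with the groups apart (log2 -0.70, SE 0.07, adjusted p = 5.65e-09), and Alad, of heme synthesis, fell by 0.42. The iron exporter Slc40a1 rose by 0.30 (adjusted p = 0.103 with array medians set equal). The metallothioneins Mt1 (-0.44) and Mt2A (-0.11) did not pass. Nrf2 targets, the antioxidant genes, had 7 fallers and 3 risers among 30 (3 fallers after quantile normalization, 4 without replicate 1 at 24 h, and 1 riser with array medians set equal). None of 15 tested clock genes passed (limma). Per2, a clock repressor, had a log2 difference of 0.30 (adjusted p = 0.151), and 1 clock gene passed without replicate 1 or replicate 5 at 24 h. In the cell cycle list 1 of 34 rose and 1 fell (0 to 2 and 0 to 1 as each vehicle well was left out), and Ccnd1, cyclin D1, did not pass (log2 -0.18, SE 0.14, adjusted p = 0.522). Mki67, the proliferation marker, lay below the filter level, as did the clock outputs Dbp and Nr1d1. The glucocorticoid list had 4 risers and 4 fallers among 21, heat shock and folding 1 and 4 among 25, p53 targets 1 and 1 among 23, and xenobiotic and lipid receptors 1 and 1 among 19. Leaving out each vehicle well gave 2 to 4 risers and 2 to 5 fallers in the first, 0 to 1 and 1 to 5 in the next, 1 to 2 and 0 to 1 in p53 targets, and 0 to 1 and 1 to 2 in receptors.

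The proteasome, which degrades tagged proteins, had 15 fallers and no riser among 40 tested genes, each by a small step. Psmc3, an ATPase of the regulatory cap, read 13.66, 13.57, 13.87, 13.63 and 13.48 at 24 h and 13.33, 13.46, 13.33, 13.36 and 13.42 at 48 h (log2 -0.26, SE 0.05, adjusted p = 0.00196). The groups were apart by a few hundredths. Psmb3, a core subunit, fell by 0.25 (adjusted p = 0.00204). The count depended on processing and on single wells. It was 6 after quantile normalization and 10 with array medians set equal. It was 8 without replicate 1 at 24 h, and 8 and 9 without replicate 3 and 4 at 48 h. The mitochondrial respiratory chain had 6 fallers and no riser among 52, and 1 faller after quantile normalization. Its count was 3 without replicate 1 or 2 at 24 h or replicate 3 at 48 h. Cytosolic ribosomal proteins had 2 fallers among 39 and a median of -0.122, which was 0.0183 after quantile normalization. None fell without replicate 1 or 2 at 24 h or replicate 3 at 48 h, 1 fell without replicate 3 at 24 h or replicate 1 or 4 at 48 h, and 5 fell without replicate 2 at 48 h.

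Markers of other liver cells did not move as 1 group. Lrat (stellate cells), Cd163 (macrophages), Pecam1 and Stab2 (endothelial cells), Krt19 (bile ducts) and Ptprc (leukocytes) lay below the filter level at both times. Of 14 tested macrophage markers 4 fell and none rose (median -0.355), and 4 in each fit without 1 vehicle well. Cd5l, a macrophage-secreted protein, fell by 0.95 to a 48 h mean below the filter level, Fcgr2b, an Fc receptor, by 0.86, Cd14 by 0.49 and Lyz2, lysozyme, by 0.35. Fcgr2b read 9.76, 10.02, 9.62, 10.43 and 10.08 at 24 h and 9.49, 9.01, 8.82, 9.08 and 9.20 at 48 h (log2 -0.86, SE 0.17, adjusted p = 0.00112). The summed signal of the macrophage markers ranged from 14.9 to 14.97 on the log2 scale at 24 h and from 14.44 to 14.64 at 48 h. Clec4f, the Kupffer cell lectin, did not pass, at a log2 difference of -0.54 (adjusted p = 0.28), nor did Cd68, at 0.24 (adjusted p = 0.487). In bulk wells fewer cells of a type and less RNA per cell cannot be told apart. Of 11 tested stellate cell and fibroblast markers 1 fell (Dpt, by 0.41) and Col1a1 did not pass, at 0.475 (adjusted p = 0.161). Their median log2 difference was 0.0595, and 6 of the 11 differences were positive. The summed signal of these markers nevertheless was lower, from 14.88 to 15.07 at 24 h and from 14.64 to 14.77 at 48 h. The sums of all marker lists add linear signals, so the probe sets with the highest signals weigh most in them. The cholangiocyte list had 2 risers among 7, Epcam and Ggt1, given above, and its sum lay between 14.34 and 14.52 at 24 h and between 14.55 and 14.74 at 48 h. The endothelial list had no call among 7 and a sum of 11.43 to 11.7 at 24 h and 11.71 to 12.09 at 48 h. No lymphocyte or neutrophil marker passed among 4 (limma), and of 4 erythroid markers Tfrc fell, given above. The part of other cells in the chemokine, matrix and progenitor results was not tested.

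The dosed wells offer the same interval in wells that share no array with the vehicle wells, though under the drug. Their log2 differences therefore rest on separate arrays, but their tests do not. The same model gave all of these tests, with a common spread for all groups. A gene with a small common spread passes more easily in each set of wells. Counts past the test are therefore not independent of the vehicle calls. Of the 417 genes that rose in vehicle wells, 391 (93.8%) had a positive difference at 300 µM, and 191 also passed the test there, none in the opposite direction. Of the 404 that fell, 373 (92.3%) had a negative difference and 150 passed. Over all 9831 genes 3.42% rose and 2.73% fell at 300 µM. At 3000 µM 316 (75.8%) and 341 (84.4%) kept their sign, with 165 and 191 past the test the same way and 17 and 4 the opposite way, where 7.48% of all genes rose and 8.62% fell. In all 3 sets of wells 120 genes rose and 115 fell. Across all 9831 genes, which are not independent replicates, the log2 differences of the vehicle wells correlated with those at 300 µM with r = 0.466 and those at 3000 µM with r = 0.335.

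The P450 list had 15 fallers at 300 µM and 20 at 3000 µM, with medians of -0.238 and -0.375. Cyp2c13 differed between the times by -1.43 at 300 µM and -1.26 at 3000 µM, Cyp2e1 by -1.08 at 300 µM and -0.93 at 3000 µM, and Cyp7a1 by -1.74 at 300 µM and -1.24 at 3000 µM. The growth hormone list had 10 and 13 fallers. The integrated stress response list had 15 risers at 300 µM and 12 at 3000 µM, and hypoxia targets 7 and 8. Each of these lists also had 1 faller at 3000 µM. In the stress list 5 members passed with a lower time change at 3000 µM than in vehicle wells, and 2 with a higher one. The hepatocyte transcription factors, with 2 risers in vehicle wells, had no riser at either dose. Of the 22 tested, 2 fell at 300 µM and 7 at 3000 µM. Among single genes, Serpina3c differed by -1.56 at 300 µM and -1.24 at 3000 µM, Sox4 by 1.17 at 300 µM and 0.65 at 3000 µM, and Lamb3 by 1.26 at 300 µM and 1.02 at 3000 µM. All of these changes passed the test in the dosed wells. The respiratory chain list had no faller at either dose and 2 risers among 52 at 3000 µM. The ribosomal list had no faller at either dose and 6 risers among 39 at 3000 µM. Over all genes 7.48% rose and 8.62% fell at 3000 µM, and 2.73% fell at 300 µM. The 2 respiratory chain risers are no more than that share.

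**Figure D5:**
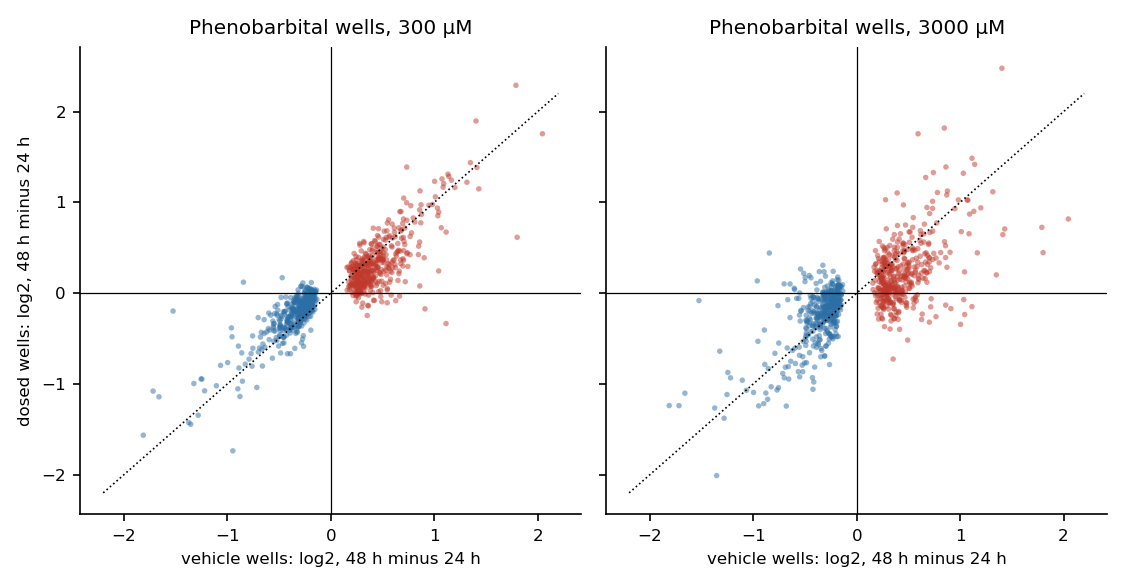
Each point is 1 of the 821 genes that passed the test in vehicle wells, with its log2 difference, 48 h minus 24 h, in vehicle wells (x) and in wells with 300 µM (left) or 3000 µM (right) phenobarbital (y); red points rose and blue points fell in vehicle wells, and the dotted line marks equal differences. The x axis chose the points, so their distance from the line is not a test. More points lie across the horizontal line at 3000 µM, where 75.8% of the risers kept their sign, than at 300 µM, where 93.8% did.

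Whether the interval differed between dosed and undosed wells was tested directly, as the time change at a dose minus that of the vehicle wells. At 300 µM no probe set passed (0%; limma, with 1251 at an unadjusted p under 0.05). The lowest p among the named genes was that of Cyp3a2, which fell by 1.72 in vehicle wells and had a difference of -1.08 at 300 µM, 0.64 apart (limma adjusted p = 0.43). At 3000 µM 688 of 16596 probe sets passed (4.15%), 229 with a higher (1.38%) and 459 with a lower (2.77%) time change than in vehicle wells. This contrast shares the vehicle arrays with the choice of the genes counted next. It covered 84 of the 417 genes that rose in vehicle wells and 57 of the 404 that fell, or 445 of all 9831 genes (4.53%). With array medians set equal 232 probe sets passed. Egr2, an immediate early factor that rose by 1.00 in vehicle wells, had a time change of -0.34 at 3000 µM (-1.35 apart, limma adjusted p = 0.00291). Npy, with 0.20 at 3000 µM against 1.35, and Scd2, with -0.23 against 1.04, were apart by -1.15 and -1.28. Hal and Kmo, which fell in vehicle wells, had time changes of 0.04 and 0.10 at 3000 µM, apart by 0.64 and 0.75. Among genes that did not pass in vehicle wells, Il1r1, the interleukin-1 receptor, had a log2 difference of -0.03 there and -0.94 at 3000 µM (limma adjusted p of the difference = 2.34e-06).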

How the data were processed

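The samples were 30 arrays of rat hepatocyte wells, 5 a group, grouped by their titles. The deposited values are linear signal intensity per probe set, made by the authors with MAS5, per the submitters' processing notes, and each array's trimmed mean (2%) lies between 1500.6 and 1500.7, which leaves the balance of higher and lower calls tied to that scaling. Scan dates and batches were not given in the sources used here. Array data carry no read depth, and the number of arrays limits the precision.

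Intensities were taken to log2 with no pseudocount. Probe sets whose highest group mean reached 8.58 (the median of all log2 values, a signal of 384) were kept, 16596 in all. A limma 3.58.1 model (R 4.3.3) with 6 group means over all 30 arrays, trend and robust variance gave the time change in each treatment and the differences between treatments, with Benjamini-Hochberg adjustment and a threshold of 0.05. Of the 31042 probe sets 20826 had 1 gene symbol in the platform annotation, 436 several and 9780 none, and genes were named only from those with 1. The probe set with the highest mean stood for its gene, 9831 genes in all.

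Named genes were the 15 largest rises and 15 largest falls that passed with groups apart, up to 4 passing members per direction of each gene list, 6 per difference between treatments, and a set of identity genes and defining markers of other liver cells named in any case; symbols that are only locus identifiers were left out. The members and lists were chosen with earlier results of these data known. The model was tested on simulated data before use. Other settings tried were normalization, filter, pseudocount, variance options, array weights, a block, a test against 1.2-fold and each vehicle well left out; list counts without each well, and the motif for HIF, were added after the data were seen.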

Additional observations from a re-analysis of the deposited data

Results flagged for a closer look

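Single wells lay far from the other 4 of their group in 31 of 396 gene and time groups and 2 of 32 array measures, by Dixon's ratio, where chance marks about 1 in 20. Vehicle replicate 1 at 24 h read 13.9 in its hybridization controls against 13.01 to 13.06, and 14.34 in the summed cholangiocyte markers against 14.48 to 14.52. The 24 h replicate 1 stood apart in Cfap20dc at 5.78 against 8.10 to 8.44, Serpine2 at 8.78 against 8.99 to 9.07 and Arg1 at 16.56 against 16.21 to 16.29 (log2 signal). It also stood apart in Alb at 17.07 against 16.43 to 16.57, Cyp3a23-3a1 at 16.58 against 16.13 to 16.20 and Cps1 at 16.36 against 15.93 to 16.02 (log2 signal). The 24 h replicate 2 stood apart in Aldh18a1 at 9.78 against 10.18 to 10.31 and Eif2ak3 at 10.43 against 10.86 to 11.01 (log2 signal). The 24 h replicate 3 stood apart in Sox4 at 9.86 against 9.70 to 9.72, Serpina6 at 9.60 against 10.34 to 10.57 and Cyp2c13 at 11.69 against 11.99 to 12.05 (log2 signal). It also stood apart in Slc2a1 at 10.27 against 10.89 to 11.08, Gldc at 11.71 against 12.16 to 12.33 and C8g at 14.61 against 14.77 to 14.83 (log2 signal). Others in this well were Fkbp5 at 13.05 against 12.66 to 12.77, Egr2 at 8.24 against 8.93 to 9.04 and Flna at 10.21 against 10.62 to 10.72 (log2 signal). It also stood apart in Itgav at 12.76 against 13.18 to 13.24 (log2 signal). The 24 h replicate 4 stood apart in Atf3 at 10.98 against 11.21 to 11.31 (log2 signal). The 24 h replicate 5 stood apart in Slc37a4 at 14.35 against 14.48 to 14.52 (log2 signal). The 48 h replicate 1 stood apart in Gstt3 at 11.66 against 11.38 to 11.43 (log2 signal). The 48 h replicate 2 stood apart in Nr1h3 at 12.64 against 12.42 to 12.45, Fdps at 15.20 against 15.09 to 15.11 and Perp at 13.87 against 13.63 to 13.69 (log2 signal). It also stood apart in Pck1 at 9.88 against 9.18 to 9.29 (log2 signal). The 48 h replicate 3 stood apart in Me1 at 13.58 against 13.37 to 13.41, Afp at 11.69 against 11.44 to 11.51 and Tasor at 10.94 against 10.84 to 10.85 (log2 signal). The 48 h replicate 5 stood apart in Cyp2e1 at 9.79 against 10.42 to 10.67, Isg15 at 12.09 against 10.48 to 10.91 and Il1r1 at 11.53 against 11.35 to 11.40 (log2 signal).

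The time change, 48 h minus 24 h, differed between wells with 3000 µM phenobarbital and vehicle wells in 43 of 198 named genes by the interaction contrast of the limma model (adjusted p under 0.05), against 4.53% of all genes. Named genes were picked partly for this contrast and partly for the vehicle time change, whose arrays it shares, so the share among them is raised by the choice. It was below that of vehicle wells for Egr2 by -1.35, Scd2 by -1.28, Mtrf1 by -1.26, Npy by -1.15, Ces1d by -1.08 and Hamp by -1.02 (log2). Also below it were Il1r1 by -0.91, Onecut1 by -0.87, Pmp22 by -0.76, Itgav by -0.66, Onecut2 by -0.65 and Cyp4a1 by -0.64. Smaller gaps in that direction were those of Tasor by -0.64, Ddit4 by -0.61, Nr3c1 by -0.50, Slc7a11 by -0.46, Me1 by -0.42 and Cryab by -0.42. The least of them were Dpt by -0.41, Ifit2 by -0.41 and C8g by -0.38. It was above that of vehicle wells for Rsad2 by 0.97, Dnase2b by 0.75, Kmo by 0.75, Ttc36 by 0.68, Gucd1 by 0.66 and Tcp11l2 by 0.64 (log2). Also above it were Hal by 0.64, Cxcl11 by 0.62, Serpina3c by 0.58, Abcc2 by 0.49, Nr1h4 by 0.48 and Reep5 by 0.38. Smaller gaps in that direction were those of Serpina3l by 0.37, Rps9 by 0.37, Txn1 by 0.36, Ctsc by 0.36, Lcn2 by 0.36 and Ndufab1 by 0.34. The least of them were Hsd11b1 by 0.34, Hspe1 by 0.33, Mgst2 by 0.24 and Rpl18 by 0.23.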

How the results depend on the processing

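The count of 1195 probe sets that differed in vehicle wells was 734 with array medians set equal (269 higher, 25 of them by 2-fold), where the drift at 300 µM had 550 and the difference at 3000 µM 232. A test against a 1.2-fold change left 104 (59 higher, 45 lower, 21 at least 2-fold higher). At least 2-fold higher were 63 with no filter and 18 with a filter at the 75th percentile. Quantile normalization gave 1037, the 10 vehicle arrays alone 1197 and array weights 1521. The replicate block (running number of the titles) gave 1150; wells with the same running number did not deviate together (r of -0.0397 to 0.0263 between 24 h and 48 h, own number the best match in 1 of 5). Leaving out each vehicle well gave 839 to 1178 in all and 345 to 529 lower, both least without replicate 3 at 48 h, 472 to 676 higher, and 29 to 50 higher and 15 to 22 lower by 2-fold. Of 198 named genes 170 had passed, and 120 passed in each fit that left out a vehicle well. No named gene that had passed reversed under these settings. Of those that had not, Apoa1, Abcb11, Cps1 and Mt2A changed sign after quantile normalization, and Pck1, Acta2 and Tcp11l2 when single wells were left out. Nr1i3, Cyp8b1, Cebpa, Nr1h4, Pmp22, Reep5, Vim and Glul had not passed but did so in at least 1 other setting. The 1.2-fold test ended the call of 126 named genes. Precision is limited by 5 wells a group of unnumbered donors, by signals near background for genes below the filter at 24 h, and by different wells at each time.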
